A study of Homo sapiens with 6 samples.

Results

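AQP2, CRYM, SPINK4 and NPY1R are 4 of the 62754 genes in the deposited expression tables, picked by name because their transcripts were very much higher after an shRNA against MEN1 than after a control shRNA. The rises described below therefore chose the genes, and no test is given on them. The cells were HUDEP-2, a human line of immortalised red cell progenitors in which adult globin predominates, and bulk RNA was sequenced. All cultures shared a serum-free medium that held erythropoietin (EPO, 3 units per ml), stem cell factor (SCF, 50 ng per ml), dexamethasone (1e-06 M) and doxycycline (1 µg per ml), received a lentivirus, and were kept in 2 µg per ml puromycin from 24 h after infection for 48 h. The groups were MEN1sh2, an shRNA against MEN1 (genotype labelled MEN1 knockdown, n = 3 libraries), and Controlsh, a non-targeting shRNA (genotype labelled WT, n = 3), both at 72 h. The titles call the libraries of a group biological replicates, and whether each came from its own transduction is not stated. With 1 shRNA against MEN1, loss of MEN1 and any other effect of that hairpin cannot be told apart.

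The 4 genes are best known outside red cells. AQP2 is the vasopressin-regulated water channel of the kidney collecting duct, moved to the apical membrane when cyclic AMP activates protein kinase A. CRYM encodes mu-crystallin, a cytosolic protein that binds thyroid hormone with NADPH and also acts as a ketimine reductase in lysine breakdown. SPINK4 is a small secreted Kazal-type inhibitor of serine peptidases, found in goblet cells of the gut. NPY1R is a receptor for neuropeptide Y and peptide YY in neurons and blood vessels, and signals through Gi proteins.

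The label "switched on" fitted AQP2 and SPINK4, which were below 1 TPM (transcripts per 1000000, a share of the library scaled for transcript length) in each control library. CRYM and NPY1R were already at 2.56 TPM or more in each control library, so they were present before and higher after. The libraries carried erythroid markers: each of the 10 erythroid identity genes checked passed the filter, and the transcription factor GATA1 was at 289 ± 2.26 TPM with MEN1sh2 and 277 ± 6.22 TPM in the controls (SD, n = 3 each). MEN1 itself checked the group labels, with 6.29, 6.44 and 6.88 TPM in MEN1sh2 replicates 1, 2 and 3 and 41.2, 39.6 and 37.1 TPM in the controls. The mean with MEN1sh2 was 16.6% of the control mean. The depth inferred from the tables was 18426388 to 35797507 read pairs per library, and 13865 to 14361 genes per library reached 1 TPM.

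The stretch before the transcription start is shown for the genes that have an entry among the RefSeq promoters (build GRCh38.p14, 3 of the 4 genes matched), because AQP2 and SPINK4, the genes that were near 0 in the controls, hold the same kinds of letters there. Each line gives the 250 bases before the RefSeq start, 5′ to 3′ on the gene's strand. Capitals mark, on either strand, the forms of the motif bound by factors such as GATA1 and GATA2, which are spelled AGATAA, with the variant AGATAG, and TGATAA, with the variant TGATAG. Capitals also mark TATAAA, the TATA box, on the gene's strand.
AQP2, chr12:49950487-49950736, plus strand: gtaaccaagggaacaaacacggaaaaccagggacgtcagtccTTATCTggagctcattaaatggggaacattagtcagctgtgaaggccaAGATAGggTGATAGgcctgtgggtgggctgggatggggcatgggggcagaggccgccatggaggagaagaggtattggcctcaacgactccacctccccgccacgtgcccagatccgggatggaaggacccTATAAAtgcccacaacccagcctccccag
SPINK4, chr9:33239917-33240166, plus strand: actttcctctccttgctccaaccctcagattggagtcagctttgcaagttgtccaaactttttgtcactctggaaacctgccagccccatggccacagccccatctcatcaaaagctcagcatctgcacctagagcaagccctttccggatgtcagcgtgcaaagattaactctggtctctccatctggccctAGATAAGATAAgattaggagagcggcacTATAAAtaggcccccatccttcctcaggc
NPY1R, chr4:163332597-163332846, minus strand: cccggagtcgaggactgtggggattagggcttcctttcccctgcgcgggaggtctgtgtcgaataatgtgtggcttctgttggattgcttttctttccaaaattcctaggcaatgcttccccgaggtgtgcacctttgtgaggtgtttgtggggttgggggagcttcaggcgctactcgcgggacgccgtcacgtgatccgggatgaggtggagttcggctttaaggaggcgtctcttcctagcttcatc

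The AQP2 stretch held 3 matches to the GATA forms, the nearest of them 152 to 147 bases before the start. In SPINK4 there were 2, both AGATAA, at 57 to 52 and at 52 to 47 bases before the start, so that they share 1 base. The NPY1R stretch held none. Of 35116 RefSeq promoters of the same length, 22.3% held at least 1 such match and 4.96% at least 2. TATAAA lay 29 to 24 bases before the start in both AQP2 and SPINK4 and was not among the letters of NPY1R. It occurred anywhere in 6.80% of promoters, with its first base 25 to 35 bases before the start in 2.17%, and in that place together with a GATA match in 0.669%. That combination is the one AQP2 and SPINK4 share, so its share is background and no test. The E-box CACGTG, counted on both strands, occurred once in AQP2 and once in NPY1R, and in 6.34% of all promoters. Other letters counted on both strands were not shared by AQP2 and SPINK4. TGACG had 1 match in AQP2, 0 in SPINK4 and 1 in NPY1R, and occurred in 21.2% of promoters. CACCC had 2 in AQP2, 0 in SPINK4 and 0 in NPY1R, and occurred in 54.7%. By CpG dinucleotides NPY1R had 15, AQP2 7 and SPINK4 3, against a median of 11. These are matches of letters in a fixed window, and no binding was measured here. For NPY1R the window is set by 1 start only. The 3029-base NPY1R transcript of GENCODE v29 begins upstream of the window, at 163332862, and others begin at 163333018 and 163344832. The letters before those starts were not read.

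AQP2 (ENSG00000167580, chromosome 12, 49950737 to 49958878, plus strand) stood at 36.9, 71.4 and 66.2 TPM in MEN1sh2 replicates 1, 2 and 3. Its TPM in control replicates 1, 2 and 3 was 0.579, 0.557 and 0.400. MEN1sh2 replicate 1 was the lowest of its group, and it still lay 63.7 times above the highest control. The means were 58.2 ± 18.6 and 0.512 ± 0.0978 TPM (SD, n = 3 each), a ratio of 114, and the difference on the log2(TPM + 1) scale was 5.24 (SE 0.235). Mean read coverage per exonic base was 112, 207 and 151 with MEN1sh2 and 2.09, 1.99 and 1.23 in the controls. Divided by the gigabases aligned in each library, coverage differed by a ratio of 111, close to that of TPM.

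CRYM (ENSG00000103316, chromosome 16, 21238874 to 21303083, minus strand) was at 72.0, 128 and 118 TPM in MEN1sh2 replicates 1, 2 and 3 and at 2.89, 2.56 and 4.35 TPM in the controls. The lowest MEN1sh2 library was 16.6 times the highest control. The means of 106 ± 30.01 and 3.26 ± 0.952 TPM (SD, n = 3 each) gave a ratio of 32.5 and a log2 difference of 4.63 (SE 0.238). Its coverage read far lower than that of AQP2, at 13.6, 26.4 and 16.8 with MEN1sh2 and 0.598, 0.689 and 0.763 in the controls. Coverage divided by FPKM (fragments per kilobase and per 1000000 fragments) was 5.46% to 5.52% of the value that genes with a single transcript have in the same library, in all 6 libraries. The 2 measures therefore differ in scale and not in the comparison: per gigabase aligned, the coverage ratio between the groups was 33.1.

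SPINK4 (ENSG00000122711, chromosome 9, 33218365 to 33248567, plus strand) reached 12.3, 31.8 and 26.0 TPM in MEN1sh2 replicates 1, 2 and 3. Among the controls, replicate 1 had 0.339 TPM, replicate 2 had 0.116 TPM, and replicate 3 is listed at 0. The groups did not overlap, and the lowest MEN1sh2 library was 36.2 times the highest control. The means were 23.4 ± 10.004 and 0.152 ± 0.173 TPM (SD, n = 3 each), with a log2 difference of 4.31 (SE 0.320). The ratio of means, 154, rests on control values of very few reads. On the SPINK4 transcripts of GENCODE v29, which have 402 and 533 bases, the FPKM of control replicate 1 corresponds to 1.71 and 2.26 read pairs, and that of control replicate 2 to 0.754 and 1.00. The MEN1sh2 values correspond to 56.8, 158 and 89.7 read pairs on the 402-base transcript.

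The deposited row of SPINK4 covers both transcripts, and the start of the 402-base one lies next to the promoter printed above, while the 533-base one begins more than 20 kb upstream. Coverage divided by FPKM was 7.26% of the single-transcript value in all 3 MEN1sh2 libraries and in control replicate 1. In control replicate 2 it was 9.70%, higher by a factor of 1.34, and the lengths of the long and the short transcript stand in a ratio of 1.33. Coverage itself was 3.10, 8.63 and 4.89 with MEN1sh2 and 0.0932, 0.0550 and 0 in the controls.

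NPY1R (ENSG00000164128, chromosome 4, 163323962 to 163344832, minus strand) was the most abundant of the 4 in the controls. It was at 90.6, 122 and 126 TPM in MEN1sh2 replicates 1, 2 and 3 and at 7.88, 7.41 and 7.85 TPM in the controls. The control libraries lay within a narrow range, and the lowest MEN1sh2 library was 11.5 times the highest of them. The means were 113 ± 19.3 and 7.72 ± 0.262 TPM (SD, n = 3 each), a ratio of 14.6 and a log2 difference of 3.69 (SE 0.126). Coverage was 206, 297 and 211 with MEN1sh2 and 19.0, 23.7 and 15.6 in the controls, a ratio of 15.2 per gigabase aligned.

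**Figure D1:**
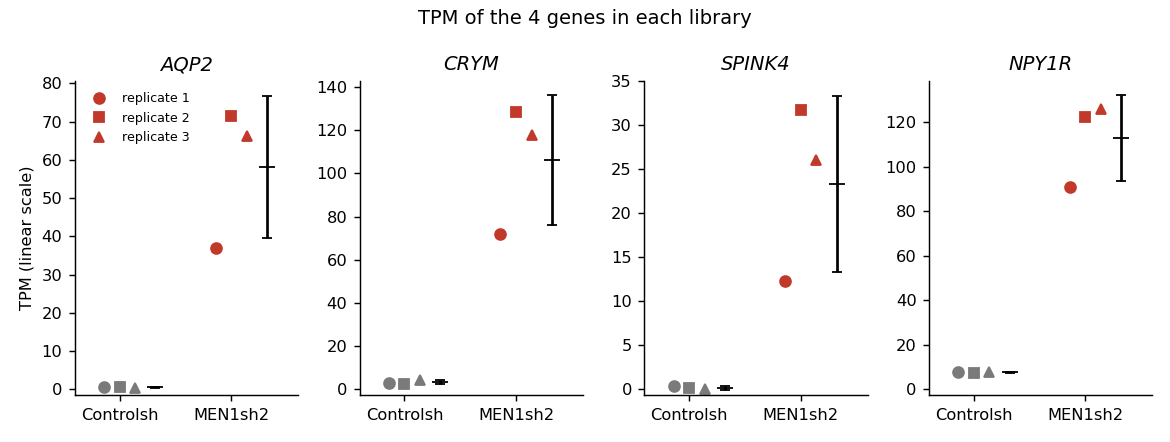
TPM of AQP2, CRYM, SPINK4 and NPY1R on linear axes, 1 point per library (shape for the replicate), with the mean and SD of each group of 3 as a bar beside the points. The control points lie near 0 for AQP2 and SPINK4 and at 7.41 to 7.88 TPM for NPY1R, and MEN1sh2 replicate 1 is the lowest of its group in each panel.

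All 4 genes had every MEN1sh2 library above every control library. That held for 25.8%, and the reverse for 35.9%, of the 14294 genes that passed a filter (3 or more of the 6 libraries at 1 TPM or above), and nothing is read from it here, since the genes were chosen on this difference. AQP2 and SPINK4 passed the filter only through the MEN1sh2 libraries. In the controls NPY1R lay clearly above CRYM, and CRYM above AQP2, on the TPM scale. SPINK4 was listed below AQP2 without overlap, but by little: its highest control was 0.339 TPM and the lowest of AQP2 0.400 TPM. That SPINK4 value corresponds to 1.71 to 2.26 read pairs, so this last step is not clear. With MEN1sh2, NPY1R and CRYM overlapped (90.6 to 126 and 72.0 to 128 TPM) and cannot be ordered, AQP2 lay below both and SPINK4 was the lowest. By abundance within a library, the median rank of CRYM moved from 11285 to 1364 and that of SPINK4 from 21814 to 5198. In bulk RNA, more cells with a transcript and more of it per cell cannot be told apart.

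The MEN1sh2 libraries were far from equal for these genes. The TPM of MEN1sh2 replicate 1, as a percent of the mean of replicates 2 and 3, was 42.5% for SPINK4, 53.6% for AQP2, 58.5% for CRYM and 73.1% for NPY1R. The SD of log2(TPM + 1) over the MEN1sh2 libraries was 0.69, 0.51, 0.45 and 0.26 in the same order. Among genes within 0.5 of the same mean level, medians of that SD were 0.0840 to 0.109, and the 4 genes ranked at the 99.5th, 98.8th, 98.7th and 93.6th percentile. MEN1 was lowest in replicate 1 as well, at 6.29 TPM.

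Replicate 1 stood apart beyond these genes. Among the 705 other genes that were at least 2-fold higher and past the threshold, it was the lowest of the 3 MEN1sh2 libraries in 568 (80.6%), with a median of 80.6% of replicates 2 and 3, against 36.8% and 99.951% over all genes that passed the filter. Among the 987 genes at least 2-fold lower it was the highest in 759 (76.9%), so on both sides it was the nearest to the controls. Without replicate 1 the ratios of mean TPM became 190.4 for SPINK4, 134 for AQP2, 37.7 for CRYM and 16.1 for NPY1R. Whether replicate 1 differed in transduction, timing or maturity was not tested.

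**Figure D2:**
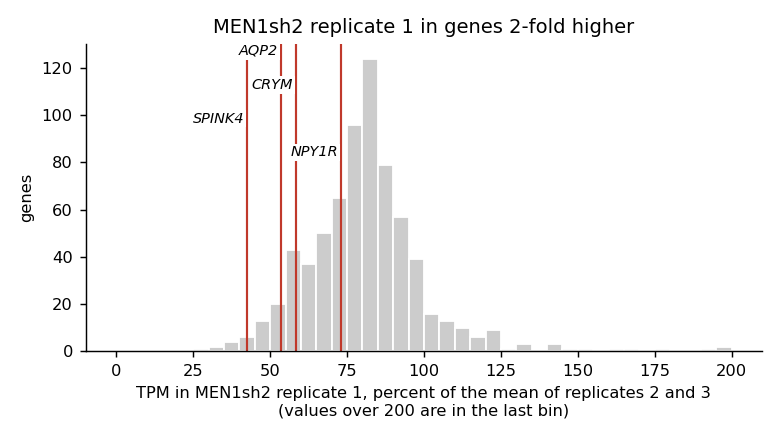
Histogram of TPM in MEN1sh2 replicate 1 as a percent of the mean of replicates 2 and 3 (x axis) over the 705 other genes at least 2-fold higher with MEN1sh2 (y axis, number of genes), with a line for each of the 4 genes. The lines of SPINK4, AQP2 and CRYM lie below 70.0%, the lower quartile of the 705 genes, and NPY1R lies above it at 73.1%.

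Ranked by log2 difference among the 10296 named genes with a mean of 5 TPM or more in a group, AQP2 was 2nd, CRYM 4th, SPINK4 6th and NPY1R 12th. Above and between them stood RN7SL2 (5.86), MTATP6P1 (4.66) and the globin pseudogene HBBP1 (4.57). RN7SL2 belongs to a family of near-identical copies and MTATP6P1 is a nuclear copy of a mitochondrial gene, and how reads were divided among copies is not given in the sources used here. MTATP6P1 also overlapped between the groups and did not pass the threshold (adjusted p = 0.0528 in limma). Between SPINK4 and NPY1R lay ALDH1A2, a retinaldehyde dehydrogenase that makes retinoic acid (84.0 ± 28.9 against 3.50 ± 0.159 TPM), CTSE, which encodes cathepsin E (172 ± 32.7 against 9.56 ± 2.24 TPM), the tetraspanin CD9, GDF15 and ACSL6. Just below NPY1R came TAC3, the neurokinin B precursor (25.4 ± 10.5 against 1.11 ± 0.0734 TPM), the embryonic globin HBZ and EML1.

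A gene below 1 TPM in each control library and at 5 TPM or more in each MEN1sh2 library was uncommon: 18 genes met this, 15 of them named, and AQP2 and SPINK4 were the highest 2 of the named ones by log2 difference. CD9 followed, listed at 0 in all 3 control libraries and at 8.85, 18.2 and 15.1 TPM with MEN1sh2. The reverse pattern, 5 TPM or more in each control and below 1 TPM in each MEN1sh2 library, was met by 8 genes.

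**Figure D3:**
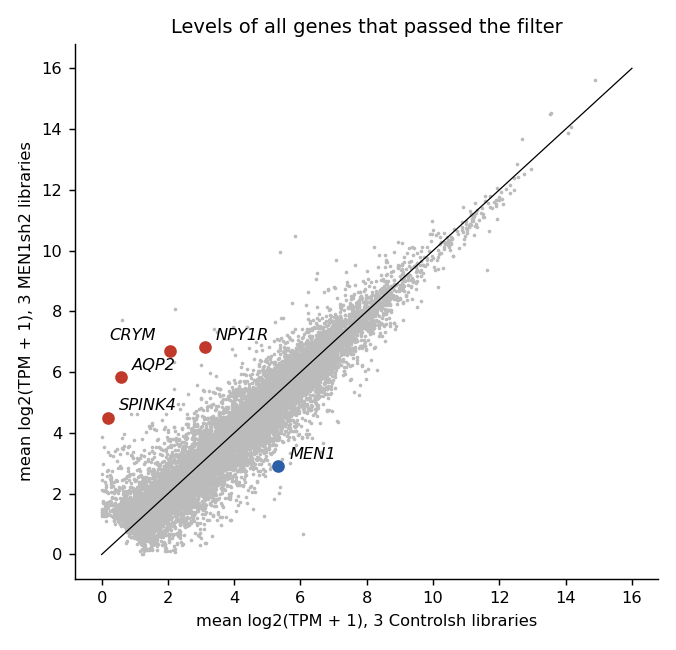
Mean log2(TPM + 1) in the 3 MEN1sh2 libraries (y axis) against the 3 Controlsh libraries (x axis) for the 14294 genes that passed the filter, grey, with the line of equal levels. AQP2, CRYM, SPINK4 and NPY1R, red, lie 3.69 to 5.24 above the line, and MEN1, blue, lies 2.42 below it.

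Likeness of profiles was measured as the Euclidean distance over the 6 libraries between values of log2(TPM + 1) minus the control mean, among named genes. It describes the same contrast that chose the genes. The nearest genes to AQP2 were CRYM (distance 1.197), HBBP1 (1.57) and SPINK4 (1.63). CRYM lay nearest to HBBP1 (0.676), SPINK4 (0.931) and ALDH1A2 (0.959). ALDH1A2 was the nearest gene to SPINK4 (0.486), followed by CD9 (0.888) and CRYM. The genes nearest to NPY1R were HBZ (0.439), CD9 (0.482) and EML1 (0.485). Its distance to the other members was 1.28 for SPINK4, 1.70 for CRYM and 2.705 for AQP2.

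Position in the genome was not used to choose the genes, which lie on 4 chromosomes. The tables hold 33 other genes within 100 kb of a member, of which 25 stayed below 1 TPM in every library, 9 of these listed at 0 throughout. Of the 7 that passed the filter, 6 rose and 0 fell, against 22.1% of all tested genes that rose by the same call (limma, adjusted p under 0.05) and 31.5% that fell. Over all genes the excess of falls went with the scaling, since median-of-ratios size factors gave 3758 higher and 3838 lower calls in place of 3158 and 4499. The median log2 difference of the 7 was 0.52, against -0.07 over all genes tested. The largest rise was that of CHMP5, an ESCRT subunit 16312 bases beyond SPINK4 (106 ± 13.95 against 47.2 ± 1.77 TPM, log2 difference 1.15, adjusted p = 9.1e-05). RACGAP1, a regulator of cytokinesis 18045 bases from AQP2, rose by 0.81 (adjusted p = 0.000145). NFX1, B4GALT1 and LDAF1 rose by 0.41 to 0.62. NPIPB3, one of a family of close copies, rose by 0.28 (adjusted p = 0.0224), and it missed the threshold without MEN1sh2 replicate 2 or 3, without control replicate 1 or 3, or with no filter (adjusted p = 0.0549 to 0.0749).

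None of the neighbours that passed the filter moved on the scale of the 4 genes. Genes below 1 TPM cannot show a large difference on the log2(TPM + 1) scale, so for them that scale decides nothing. AQP5 and AQP6, the other aquaporin genes beside AQP2, reached at most 0.421 and 0.0255 TPM in any library. AQP5 was at 0.421, 0.185 and 0.0806 TPM with MEN1sh2 and is listed at 0 in the controls. AQP6 is listed at 0 with MEN1sh2. NPY5R, the receptor gene whose row overlaps that of NPY1R head to head, is listed at 0 in all 6 libraries. ZP2, on the far side of CRYM, was at 0.0805 to 0.189 TPM with MEN1sh2 and is listed at 0 in the controls.

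Rows that overlap a member all lie on the opposite strand, 7 in number, and whether reads were assigned by strand is not given in the sources used here. BAG1 overlaps the last 748 bases of SPINK4 and was the only abundant one, at 79.4 ± 34.3 TPM with MEN1sh2 and 74.6 ± 7.04 TPM in the controls (log2 difference 0.01, adjusted p = 0.987; the sign was negative without MEN1sh2 replicate 3, -0.31, or without control replicate 1 or 2). In the controls SPINK4 was thus at 0 to 0.339 TPM beside 68.5 to 82.3 TPM of BAG1. AQP5-AS1, which covers most of AQP2, was at 0.278 to 0.427 TPM with MEN1sh2 and listed at 0 in the controls. ABCA15P and ANKS4B, over the ends of CRYM, reached at most 0.816 and 0.294 TPM. ANKS4B is listed at 0 in the controls, while the mean of ABCA15P was higher there (0.544 against 0.320 TPM with MEN1sh2). Of the others, NPY5R is listed at 0 and 2 unnamed genes reached at most 0.00851 TPM.

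**Figure D4:**
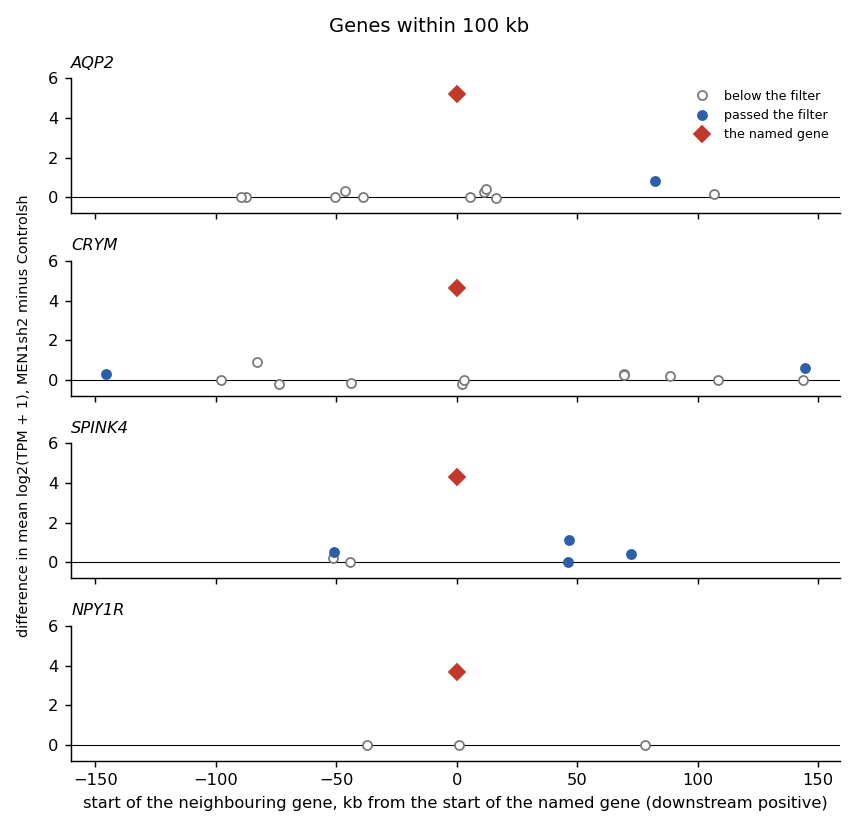
Difference in mean log2(TPM + 1) (y axis) of the genes within 100 kb of each member, by the distance in kb between gene starts (x axis, downstream positive), filled where the gene passed the filter. The members, red diamonds, stand at 3.69 to 5.24, and the highest filled neighbour is CHMP5 at 1.15.

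The aquaporin family was next. Of the other 13 aquaporin genes, 4 passed the filter and all 4 were called higher, against 22.1% of all tested genes called higher. AQP1, the water channel of the red cell membrane, stood at 111, 72.3 and 165 TPM with MEN1sh2 and at 24.4, 16.4 and 22.9 TPM in the controls (log2 difference 2.34, SE 0.283, adjusted p = 0.000364). AQP3, a water and glycerol channel also found in red cells, went from 61.4 ± 0.825 to 116 ± 2.85 TPM (0.90, adjusted p = 2.6e-05). AQP10 rose by 1.16 (adjusted p = 0.00414). AQP11 was at 1.71, 2.65 and 4.16 TPM with MEN1sh2 and at 0.368, 0.908 and 1.25 TPM in the controls (log2 difference 1.04). It needed the MEN1sh2 libraries to pass the filter, so its call is no evidence. That call also missed the threshold without control replicate 1 and with no filter. The remaining 9 stayed below 1 TPM in every library. The rise of AQP1 differed from that of AQP2 in its replicates, since replicate 2 was the lowest MEN1sh2 library for AQP1 and the highest for AQP2.

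Of 13 genes of vasopressin and cyclic AMP signalling, 9 passed the filter, 3 rose and 2 fell (55.6% past the threshold), near the 53.6% of all genes tested. The vasopressin receptor AVPR2 reached at most 0.543 TPM. ADCY3, an adenylyl cyclase, fell from 25.4 ± 1.58 to 11.3 ± 1.95 TPM (-1.11, adjusted p = 0.00023), while the protein kinase A subunits PRKAR1A (0.77) and PRKACA (0.33) rose. The count of falling genes was 1 without MEN1sh2 replicate 2 or 3, and without any 1 control library. GNAS, the stimulatory G protein, was at 469.8 ± 25.02 against 467 ± 15.8 TPM (log2 difference 0.01, adjusted p = 0.916, with a negative sign without MEN1sh2 replicate 3 or control replicate 3).

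Of 9 transcription factors known at the AQP2 gene, 6 passed the filter, 2 rose and 2 fell (66.7%, against 53.6% of all genes tested). GATA2, which acts on AQP2 in the collecting duct and in blood marks early progenitors, was at 80.0, 51.8 and 84.6 TPM with MEN1sh2 and at 149, 168 and 155 TPM in the controls. The groups did not overlap (log2 difference -1.14, SE 0.172, adjusted p = 0.00101). NFATC1 fell (-0.44) and NFAT5, the tonicity-responsive factor, rose (0.42). GATA3 reached at most 0.338 TPM and ELF5 is listed at 0 in all libraries. ELF3, also below the filter and not tested, was at 0.919, 0.712 and 0.496 TPM with MEN1sh2. Its TPM in the controls was 0.0160, 0.118 and 0.0190. Without MEN1sh2 replicate 1 or control replicate 2 the count of rising factors was 1.

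Of 18 genes that transport, convert or respond to thyroid hormone, the ligand of CRYM, 9 passed the filter, 2 rose and 3 fell (55.6%, near the 53.6% of all genes tested), with a median log2 difference of -0.16 against -0.07 over all genes tested. The receptor THRB fell from 13.4 ± 1.03 to 8.24 ± 0.959 TPM (-0.64, adjusted p = 0.00196). Its paralog THRA, named after its value was seen, fell by 0.92 (adjusted p = 0.00278). RXRB, a dimer partner of both receptors, rose by 0.51 and KLF9, a known thyroid hormone and glucocorticoid target, by 0.48. NCOR1 (-0.11, adjusted p = 0.195) and RXRA (-0.16, adjusted p = 0.0631) did not pass, though RXRA did without MEN1sh2 replicate 1 (0.0376). The deiodinases DIO1, DIO2 and DIO3 were below 1 TPM in every library. The count of falling genes was 5 without MEN1sh2 replicate 1 and 4 with a filter at a mean of 5 TPM. It was 2 without MEN1sh2 replicate 2 or 3 or control replicate 2 or 3. It was also 2 with median-of-ratios scaling, with the replicate block or with no filter.

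In lysine breakdown, the other pathway of CRYM, 10 of 12 genes passed the filter, 4 rose and 3 fell (7 of 10, against 53.6% of all genes tested), with a median log2 difference of -0.00085. DHTKD1, a subunit of the 2-oxoadipate dehydrogenase, went from 18.5 ± 1.76 to 60.3 ± 2.85 TPM (1.66, adjusted p = 2.1e-05). HADH rose by 0.57, DLST by 0.40 and OGDH by 0.27. PYCR1 (-0.70), AASS (-0.60) and GCDH (-0.41) fell.

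No other listed gene of the SPINK and NPY families reached 1 TPM in any library. None of the other 9 SPINK genes passed the filter, and 7 are listed at 0 in all libraries. SPINK1 was at 0.597 to 0.743 TPM with MEN1sh2 and at 0 to 0.557 TPM in the controls. None of 7 genes for NPY ligands, other NPY receptors and the peptide-cleaving enzyme DPP4 passed it either. NPY, NPY5R and DPP4 are listed at 0 in all 6 libraries, and PYY reached at most 0.0885 TPM. Of 17 genes for Gi signalling, 8 passed the filter, 2 rose and 5 fell (87.5%, against 53.6% of all genes tested, of which 31.5% fell). GNAI2, a Gi alpha subunit, fell (log2 difference -0.42, adjusted p = 0.00163), as did the arrestin ARRB1 (-1.32, adjusted p = 0.000314), while GNB1 rose by 0.61 and ARRB2 by 0.54. The count of falling genes was 3 without MEN1sh2 replicate 1 or 3 or control replicate 1 or 2, and also with FPKM, with median-of-ratios scaling or with no filter.

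**Figure D5:**
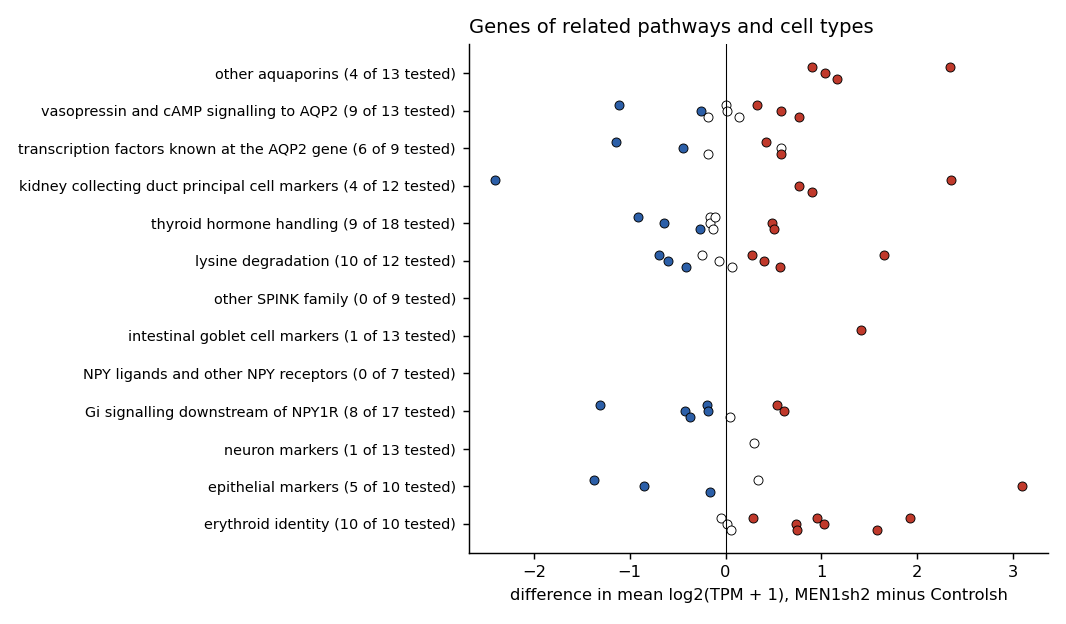
Difference in mean log2(TPM + 1), MEN1sh2 minus Controlsh, for each gene that passed the filter in the 13 lists (1 point per gene, red higher, blue lower, white not past the threshold in limma). The 4 tested aquaporins lie between 0.90 and 2.34, and the SPINK and NPY lists hold no tested gene. FXYD4, red among the collecting duct markers at 2.35, passed the filter only through the MEN1sh2 libraries, so its colour is no evidence. AQP11, red at 1.04, and CALB1, red at 0.77, also needed the MEN1sh2 libraries to pass, so their colours are no evidence either.

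Markers of the tissues where the 4 genes are usually found were also read. Of 12 collecting duct markers, 8 were below 1 TPM in every library and AQP4, SCNN1A, KCNJ1 and TFAP2B are listed at 0. The summed level ran from 122 to 129 TPM with MEN1sh2 and from 72.7 to 77.6 TPM in the controls, most of it AQP3. FXYD4, a regulator of the sodium pump, was at 5.31 ± 1.78 against 0.223 ± 0.299 TPM, with no test given because it passed the filter only through the MEN1sh2 libraries. Of the 4 markers that passed the filter, 3 were called higher and 1 lower. Those called higher were AQP3 (log2 difference 0.90), FXYD4 and CALB1 (1.995 ± 0.176 against 0.783 ± 0.394 TPM). CALB1 also needed the MEN1sh2 libraries to pass the filter, so its call and that of FXYD4 are no evidence. HSD11B2, which inactivates cortisol, fell from 11.6 ± 2.41 to 1.39 ± 0.532 TPM (-2.41, adjusted p = 8.7e-05).

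Of 13 goblet cell markers, 1 passed the filter, the tissue kallikrein KLK1, which rose from 22.2 ± 2.45 to 61.1 ± 7.66 TPM (1.42, adjusted p = 7.3e-05). MUC2 reached at most 0.00756 TPM and TFF1, TFF3 and ATOH1 are listed at 0. The summed level of this list was 52.9 to 67.5 TPM with MEN1sh2 and 21.1 to 26.0 TPM in the controls, nearly all of it KLK1. Of 13 neuron markers only TUBB3 passed the filter (log2 difference 0.30, adjusted p = 0.251), with sums of 2.98 to 5.48 against 2.76 to 3.20 TPM and STMN2, SYT1 and DCX listed at 0. Of 10 epithelial markers, 5 passed the filter, 1 rose and 3 fell (4 of 5, against 53.6% of all genes tested). Among the falls, CDH1 (-0.16, adjusted p = 0.0418) missed the threshold without any 1 library other than control replicate 2. It also missed with FPKM, median-of-ratios scaling, the replicate block or no filter. KRT19, a keratin, rose from 20.4 ± 6.45 to 179 ± 34.2 TPM (3.10, adjusted p = 5.2e-05), EPCAM (-0.86) and MUC1 (-1.38) fell, and GRHL2 is listed at 0. The epithelial sums were 433 to 488 TPM with MEN1sh2 and 500.1 to 536 TPM in the controls.

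Erythroid identity genes were higher in the same libraries: 7 of 10 rose, against 22.1% of all genes tested, and 0 fell, with a median log2 difference of 0.74. The count of rising genes was 6 without MEN1sh2 replicate 1 or 3 or control replicate 1 or 2. It was 5 with no filter and 8 with median-of-ratios scaling, and 0 fell in each of these. SLC4A1, the band 3 anion exchanger, rose by 1.93 and ALAS2, the first enzyme of heme synthesis in red cells, by 1.03. The part of this shift in the rises of AQP2, CRYM, SPINK4 and NPY1R was not tested. Over the 13 lists together, 65 of 151 genes passed the filter and 47 of these (72.3%) passed the threshold, 28 higher and 19 lower, against the 53.6% of all genes tested. The 28 include FXYD4, which passed the filter only through the MEN1sh2 libraries, so its call is no evidence. AQP11 and CALB1 are also among the 28 and needed the MEN1sh2 libraries to pass, so their calls are no evidence either.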

How the data were processed

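Poly(A) RNA was made into directional libraries, per the labels' protocols. Trimmomatic, STAR 2.7.1a, StringTie 2.0.4 and build hg38 are named in the submitters' processing notes. The annotation is not given in the sources used here. The deposited coverage is a signal per exonic base, not scaled for depth, the deposited FPKM is scaled by the authors per kilobase and 1000000 fragments, and the deposited TPM sums to 1000000 per library, per the file headers and the values. In control replicate 2, 3 residues just below 0 in deposited TPM or coverage were set to 0. Of 58261 gene identifiers shared with GENCODE v29 (GRCh38), 99.97% overlap their position there.

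Depth was inferred from coverage over FPKM in single-transcript genes, with 302 bases per read pair as the commonest coverage times length in genes with few reads. No read counts were recovered, so no count model was used. Genes with 1 TPM or more in at least 3 of 6 libraries were fitted as log2(TPM + 1) with limma 3.58.1 (eBayes with trend, R 4.3.3), MEN1sh2 minus Controlsh, all 6 libraries, 2-sided, Benjamini-Hochberg adjusted over 14294 genes, threshold 0.05. A log2 difference on this scale understates the change of low genes. The step was tested on simulated data. The exact permutation test is not used, since 3 against 3 libraries cannot pass 0.05 in it.

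The 4 genes and the 13 lists were chosen with earlier results of these data known. From each list at most 3 called genes with the lowest adjusted p and 2 others with the highest TPM were to be named, beside neighbours, genes adjacent in rank and genes of like profile. GATA1, THRA, OGDH, PYCR1, AASS, GCDH and CD9's library values fall outside this rule and were chosen after their values were seen. So were list genes named as low or listed at 0. Alternatives were another pseudocount, FPKM, median-of-ratios scaling, other filters, coverage, a replicate block and leaving out each library. Plots were made with Python 3.11.15, pandas 2.3.3 and matplotlib 3.10.9.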

Additional observations from a re-analysis of the deposited data

How the results depend on the processing

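Of 84 comparisons of the members' differences and of counts with an alternative, 0 reversed in direction, 73 stayed within 1 SD of the replicates or, for counts, within 1.5 times, and 11 moved, all of them log2 differences of members. For members, leaving out 1 of the 3 libraries of a group cannot shift the difference by 1 SD, and the replicate block cannot shift it at all. Those comparisons were bound to fall among the 37 of members that stayed, so their labels carry no information. A pseudocount of 0.1 gave 6.53 for AQP2 and 6.68 for SPINK4, and FPKM in place of TPM gave 4.46 and 3.39, since low control values weigh more or less against the pseudocount. Coverage per gigabase with a pseudocount of 1 gave 4.26 for AQP2, 1.76 for CRYM, 0.82 for SPINK4 and 3.43 for NPY1R, where that pseudocount exceeds every control value of AQP2, CRYM and SPINK4 and 2 of the 3 MEN1sh2 values of SPINK4. With a pseudocount of 0.1, chosen after seeing the data, it gave 6.18, 3.92 and 2.999 for AQP2, CRYM and SPINK4. Leaving out a library gave 5.06 to 5.53 for AQP2, 4.47 to 4.88 for CRYM, 4.05 to 4.70 for SPINK4 and 3.61 to 3.84 for NPY1R, 6577 to 7542 genes past the threshold, 41 to 44 listed genes and 5 to 6 neighbours.

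Libraries with the same replicate number hardly deviated together (correlations 0.017, -0.027 and -0.012), so the numbers pair nothing here. With the replicate block 7012 genes passed the threshold against 7657 without it, 43 of the listed genes against 47, and the members' differences could not move, by construction. Few reads limit the control levels of SPINK4 and AQP2.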
